A study of Mus musculus with 6 samples.

Results

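Il12rb2 and Stat4, the genes through which T cells respond to IL-12, were described here by the Ezh2 signal over their chromosomal windows in mouse Th1 and Th2 cells. With libraries scaled by their totals, Ezh2 was not found enriched over input at either gene in either cell type. The members were 2 genes, each given as a fixed window of the mm9 genome: Il12rb2 at chr6:67235001-67330000 (95 kb) and Stat4 at chr1:52040001-52165000. Together they made up 220 bins of 1 kb, of 2638957 such bins on chromosomes 1 to 19 and X. The windows are set by gene name and position, not by a measured value. No annotation of mm9 was used, so promoters, exons and introns were not placed inside the windows, and positions are given as distances from the start of each window.

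The data were chromatin immunoprecipitation followed by sequencing (ChIP-seq), which counts the genomic positions of DNA recovered with an antibody. The cells were naive CD4 T cells (CD44 low, CD62L high) from the spleens of C57BL/6 mice, and no altered allele is given for any group. They were cultured for 5 days, the first 2 with antibodies to the T cell receptor and CD28, in medium with IL-2 at 15 ng/ml. Th1 cultures received IL-12 at 10 ng/ml with an antibody to IL-4, and Th2 cultures IL-4 at 100 ng/ml with an antibody to IFN-γ. In each cell type 3 libraries were made, 1 from chromatin recovered with a polyclonal Ezh2 antibody, 1 with rabbit IgG as the control antibody, and 1 from input DNA, which is chromatin that met no antibody. There was 1 library in each of the 6 groups. No spread between replicates could be measured, so every test below compares these libraries and every interval covers counting error only. The sources used here do not say whether cultures or animals were pooled, and ChIP-seq carries no transcript level with which to check the cell types against their markers.

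IL-12 is the cytokine that drives naive CD4 T cells towards the Th1 fate. Its receptor pairs a constitutive chain, encoded by Il12rb1, with an inducible signalling chain, encoded by Il12rb2. The kinases Jak2 and Tyk2 then phosphorylate Stat4, a transcription factor that enters the nucleus and acts on genes such as Ifng and Tbx21. Th1 cells are known to keep the Il12rb2 chain and Th2 cells to lose it, which makes them unresponsive to IL-12. Ezh2 is the catalytic subunit of the Polycomb complex PRC2 and methylates histone H3 at silent genes, in mammals mostly at promoters rich in CpG. The comparison therefore asked whether Ezh2 lay on the receptor gene or on its downstream transcription factor, and whether it did so differently in Th1 and Th2 cells.

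The sequences just before the annotated starts of both genes are shown because Ezh2 is typically found where CpG is dense. They come from RefSeq (GRCm38.p6), which is not the build of the reads, and no read was placed by them. Each run is the 250 bases before a start on the gene's own strand, 5′ to 3′, with every CG in capitals. Il12rb2 has 1 listed start, on the minus strand (the run covers chr6:67376189-67376438), and Stat4 has 2, on the plus strand (chr1:51986898-51987147 and chr1:52007990-52008239).
Il12rb2: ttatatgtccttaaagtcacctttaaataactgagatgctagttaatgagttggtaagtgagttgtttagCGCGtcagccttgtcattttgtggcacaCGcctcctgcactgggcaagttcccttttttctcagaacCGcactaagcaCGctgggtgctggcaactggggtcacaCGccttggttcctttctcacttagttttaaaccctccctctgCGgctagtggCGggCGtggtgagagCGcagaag
Stat4, first start: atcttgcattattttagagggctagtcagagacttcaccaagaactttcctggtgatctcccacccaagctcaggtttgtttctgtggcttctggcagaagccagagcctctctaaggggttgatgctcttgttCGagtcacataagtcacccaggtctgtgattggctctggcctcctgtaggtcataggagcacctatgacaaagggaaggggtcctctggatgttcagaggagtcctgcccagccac
Stat4, second start: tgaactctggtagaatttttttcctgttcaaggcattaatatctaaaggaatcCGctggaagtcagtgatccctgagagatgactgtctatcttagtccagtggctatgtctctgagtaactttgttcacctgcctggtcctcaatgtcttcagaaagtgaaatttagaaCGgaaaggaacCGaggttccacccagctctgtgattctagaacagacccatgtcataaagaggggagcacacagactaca
The Il12rb2 run held 10 CG with an observed to expected CpG ratio of 0.640, more CG than 62.2% of the 32851 promoters of the table. The runs of Stat4 held 1 CG (ratio 0.0601) and 3 CG (ratio 0.248), where the median promoter held 6 and had a ratio of 0.373. Thus Il12rb2 lay above the median in CG and both Stat4 starts below it. The letters TTCNNNGAA, a form of the STAT core motif that reads the same on both strands, occurred once before Il12rb2 (ttctcagaa) and not in either Stat4 run. Of all promoters in the table, 7.02% held these letters in the same 250 bases, and a match is a description of the letters alone.

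Distinct positions on chromosomes 1 to 19 and X were counted. The Th1 Ezh2 library held 10809666 of them and the Th2 Ezh2 library 14963599, and the corresponding inputs held 15578675 and 12862628. The Th1 control antibody library held 9326717. By the run labels in the file names, the Ezh2 libraries of Th1 and Th2 came from different sequencing runs, and the inputs and control antibody libraries of both cell types from 1 run. The Th2 control antibody library was used on 8 chromosomes (5053626 positions), which include chromosome 6 but not chromosome 1, so it bears on Il12rb2 only. Positions rather than reads were counted because the reads per position differed, from 1.29 in the Th1 input to 2.24 in the Th1 Ezh2 library.

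Over the whole Il12rb2 window the Ezh2 pull-down gave 474 positions in Th1 and 724 in Th2. The inputs gave 879 and 615, and the control antibody gave 436 and 642. Relative to the mean of its own library per kb, the window stood at 1.22 for Ezh2 in Th1 (95% exact Poisson interval 1.11 to 1.33) and at 1.34 in Th2 (1.25 to 1.45). The Th1 input was the highest of its cell type, at 1.57 (1.47 to 1.67), above 97.2% of all windows of 95 kb in that library, while the Th2 input stood at 1.33 (1.23 to 1.44). The Th1 control antibody was at 1.30 (1.18 to 1.43). The Th2 control antibody was at 1.58 (1.46 to 1.71), above 98.4% of the windows in that library. Its mean covers only the 8 chromosomes used and the other means all 20, so its level is not directly comparable with theirs. With totals from the same chromosomes, the Th2 control antibody was 1.11-fold over input (0.989 to 1.24). In Th1 the control antibody and the Ezh2 library thus both lay below the input, and their intervals overlapped each other. In Th2 the Ezh2 library lay at the level of its input, and the control antibody was not clearly above that input.

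Over the Stat4 window the counts were 682 Ezh2 positions in Th1 and 964 in Th2, with 1025 and 883 in the inputs and 652 for the Th1 control antibody. Relative to the library means these were 1.33 (1.23 to 1.44) and 1.36 (1.28 to 1.45) for Ezh2, 1.39 (1.31 to 1.48) and 1.45 (1.36 to 1.55) for the inputs, and 1.48 (1.36 to 1.59) for the Th1 control antibody. The 2 Ezh2 intervals overlapped each other and those of the inputs. All libraries used at a gene, inputs included, exceeded their own mean there.

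**Figure D1:**
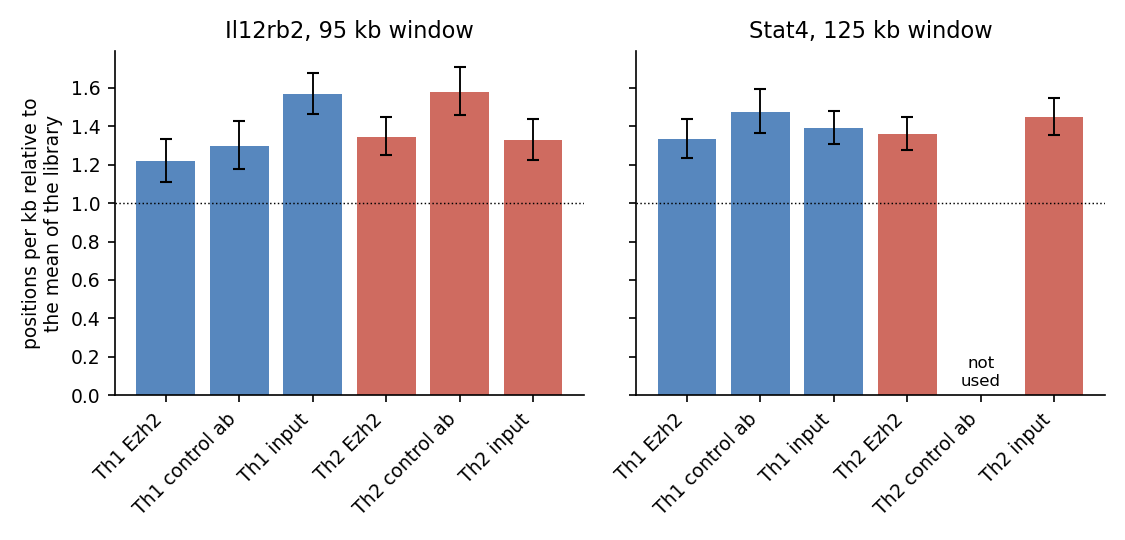
Positions per kb in each window relative to the mean of the same library (vertical axis, no unit) for the Il12rb2 and Stat4 windows. Bars are single libraries, blue for Th1 and red for Th2, lines are 95% exact Poisson intervals, and the dotted line is the library mean. At Il12rb2 the Th1 input (1.57) and the Th2 control antibody (1.58) are the highest bars, and the Ezh2 bars lie at 1.22 and 1.34. The mean of the Th2 control antibody covers 8 chromosomes and those of the other libraries 20, so its bar is not directly comparable with theirs.

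Ezh2 over input, scaled by the library totals and with 0.5 added to each count, was 0.778-fold over the Il12rb2 window in Th1 (95% exact interval 0.694 to 0.870) and 1.01-fold in Th2 (0.908 to 1.13). Over Stat4 the Th1 value was 0.959-fold (0.869 to 1.06) and the Th2 value 0.938-fold (0.856 to 1.03). The highest of the 4 upper bounds was 1.13, so an enrichment above that, averaged over a whole window, lies outside the counting error. For the windows as a whole the 2-sided exact binomial test was run on every window of the same length and adjusted by Benjamini-Hochberg. By that exact test Il12rb2 was below input in Th1 (adjusted p = 3.93e-05), where 45.6% of 26775 windows were called lower and 18.4% higher. The other 3 values did not pass: Il12rb2 in Th2 (exact test, adjusted p = 0.883), Stat4 in Th1 (adjusted p = 0.466) and Stat4 in Th2 (adjusted p = 0.224). The shares called lower and higher were 46.8% and 17.5% for Il12rb2 in Th2. For windows of the length of Stat4 they were 49.1% and 20.1% in Th1, and 50.1% and 19% in Th2. A call as lower than input was thus commoner in the genome than a call as higher or no call, and the call at Il12rb2 is no result particular to it. The Th1 value of Il12rb2 was 0.938-fold with the control antibody as background and 0.917-fold with the Th2 input, and neither passed the exact test (adjusted p = 0.408 and 0.211). With the Th1 input, the Th2 value of Il12rb2 was 0.858-fold and passed as lower (exact test, adjusted p = 0.00539). Where totals were taken from background regions instead of whole libraries, every fold was 1.43 times higher in Th1 and 1.41 times higher in Th2, so that all 4 windows stood above 1 (1.11 to 1.42). On that scale 3 of the 4 passed the exact test as higher than input: Il12rb2 in Th2 (adjusted p = 5.17e-10), Stat4 in Th1 (adjusted p = 1.41e-09) and Stat4 in Th2 (adjusted p = 8.44e-09), but not Il12rb2 in Th1 (adjusted p = 0.124). Between 57.8% and 61.6% of all windows were then called higher.

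Among all windows of its length, the Il12rb2 window exceeded 30.8% in Th1 and 71.2% in Th2. Stat4 exceeded 62.4% in Th1 and 60.0% in Th2. The median window of 95 kb stood at 0.875-fold in Th1 and 0.877-fold in Th2, and the span from the 5th to the 95th percentile was 0.653 to 1.48 in Th1 and 0.670 to 1.5 in Th2. Windows differed from each other by an SD of 0.39 in both cell types on the log2 scale of the fold, and both genes lay within that spread of the median in both cell types. The control antibody over the same input was 0.829-fold at Il12rb2 in Th1 (0.737 to 0.930, exact test, adjusted p = 0.0228), where 4.85% of windows were called lower and 4.83% higher. Only 4.61% of windows had a lower control antibody value, so that Ezh2 and the control antibody both lay below the Th1 input, with overlapping intervals. In Th2 the control antibody was 1.11-fold at Il12rb2 (0.989 to 1.24, exact test, adjusted p = 0.319), where 2.8% were called lower and 2.18% higher. At Stat4 it was 1.06-fold in Th1 (0.962 to 1.17, exact test, adjusted p = 0.46), where 7.46% were called lower and 7.32% higher.

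Finer scales gave no enriched stretch either. Of the 1 kb bins with at least 10 positions, 80 at Il12rb2 and 103 at Stat4 were tested in Th1, and 78 and 108 in Th2. A call required at least 2-fold and an adjusted p under 0.05 in the one-sided exact binomial test, and by that rule 0 bins were called at either gene in either cell type. Over all tested bins 0.992% were called in Th1 and 1.21% in Th2, and in bins as few as these a count of 0 is near that share. At Il12rb2 a count of 0 allows a called share of up to 3.75% in Th1 and 3.85% in Th2, and at Stat4 2.91% and 2.78%. At an unadjusted p below 0.05 there were 3 bins at Il12rb2 and 3 at Stat4 in Th1, and 6 and 5 in Th2, where 7.68% and 7.17% of all tested bins passed. A fold of at least 2 was reached by 5 of the 80 Il12rb2 bins in Th1 (6.25%) and by 8 of the 78 in Th2 (10.3%). For Stat4 it was 13 of 103 (12.6%) and 10 of 108 (9.26%). Over the genome 14.7% of tested bins reached it in Th1 and 14.6% in Th2, so bins of high fold were no more frequent at these genes than elsewhere. The bins were not matched for count, however. A bin with fewer positions reaches a given fold more easily by counting error, and these windows held more positions than the library means.

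The highest single bins rested on few input positions. At Stat4 in Th2 the highest lay 5 kb from the window start, chr1:52045001-52046000, with 12 Ezh2 positions against 1 in the input (7.16-fold, exact test, adjusted p = 0.182). The Th1 Ezh2 library held 5 positions in that bin against 5 in its input, 1.44-fold. In Th1 the highest was the next bin, chr1:52046001-52047000, with 12 against 3 (5.15-fold, exact test, adjusted p = 0.146), where Th2 had 7 against 9 (0.679-fold). Neighbouring bins were thus the highest of the window in the 2 cell types, and neither was high in the other. At Il12rb2 the highest bin in Th1 was chr6:67248001-67249000 with 10 Ezh2 positions against 4 (3.36-fold, exact test, adjusted p = 0.452). In Th2 that bin had 8 Ezh2 positions against 1 in the input, under the minimum for a test, and the Th2 control antibody had 10. The highest tested Il12rb2 bin in Th2 was chr6:67256001-67257000 with 12 against 2 (4.30-fold, exact test, adjusted p = 0.367), where Th1 had 8 against 13 (0.907-fold).

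These limits follow from depth. At the median Il12rb2 bin the Th1 input held 9 positions, and a call would have needed 23 Ezh2 positions (3.56-fold), against a median of 5 found. In Th2, with 6 input positions, 28 would have been needed (3.77-fold), against a median of 7. For Stat4 the numbers needed were 22 in Th1 (3.81-fold) and 30 in Th2 (3.5-fold), against medians of 5 and 8. In a single bin with the median input, a weaker enrichment was not detectable at this depth. The fold needed depends on the input count and was not computed for other bins.

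Blocks of 5 kb held more positions and narrower intervals. The 19 blocks of Il12rb2 ranged in Th1 from 0.496-fold to 1.13-fold, with a median of 0.742, and in Th2 from 0.671-fold to 1.52-fold, with a median of 0.918. The 25 blocks of Stat4 ranged from 0.556-fold to 1.88-fold in Th1 (median 0.942) and from 0.508-fold to 1.44-fold in Th2 (median 0.927). The genome medians over all blocks were 0.913 and 0.903, so the typical block of Stat4 in both cell types and of Il12rb2 in Th2 was like the typical block of the genome, and that of Il12rb2 in Th1 was lower. By the 2-sided exact binomial test adjusted over all blocks, 0 blocks were called higher or lower at either gene in either cell type. Of all blocks 2.29% were called higher and 0.755% lower in Th1, and 2.57% and 1.11% in Th2. Unadjusted, 1 Stat4 block was higher in Th1, 2 Il12rb2 blocks and 1 Stat4 block were lower in Th1, and 1 Stat4 block was lower in Th2. Unadjusted, 6.46% of all blocks were higher and 7.79% lower in Th1, and 6.36% and 8.92% in Th2. At Il12rb2 in Th1 the upper 95% bound stayed below 2-fold in 19 of 19 blocks, the highest bound being 1.89. It did so in 13 of 19 blocks in Th2 (highest bound 3.03), in 18 of 25 Stat4 blocks in Th1 (3.10) and in 20 of 25 in Th2 (2.38). In the remaining blocks an enrichment of 2-fold was within the counting error.

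**Figure D2:**
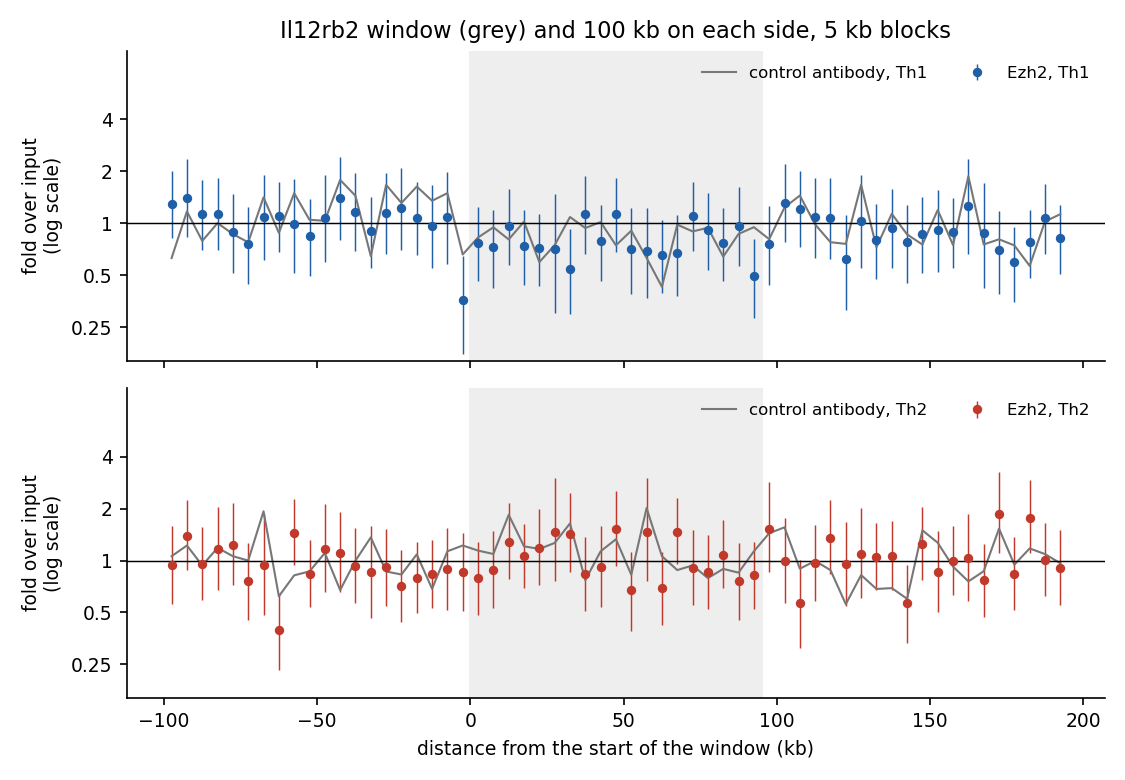
Fold over input (vertical axis, log scale) in 5 kb blocks along the Il12rb2 window (grey) and 100 kb on each side, by distance from the window start in kb. Points are the Ezh2 libraries of Th1 (above) and Th2 (below) with 95% exact intervals, and the grey line is the control antibody over the same input. Inside the window the Th1 points lie between 0.496 and 1.13 and the Th2 points between 0.671 and 1.52, and the control antibody runs among them.

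The best 5 kb of each window, meaning the 5 adjacent bins with the highest fold, was chosen by its value and so is described without a test. For Il12rb2 in Th1 it was chr6:67278001-67283000, with 34 Ezh2 and 37 input positions, 1.33-fold (95% exact interval 0.806 to 2.17). The same 5 kb gave 0.706-fold in Th2 (0.407 to 1.21) and 1.05-fold with the Th1 control antibody. When the same search was made in every window of 95 kb, the best 5 kb had a median of 1.95-fold, and Il12rb2 in Th1 exceeded only 3.75% of the windows. The best 5 kb of the Th1 control antibody at Il12rb2 was also low, 1.28-fold, above 0.650% of the windows, beside a Th1 input at 1.57 times its library mean; the part of the input in these low ranks was not tested.

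In Th2 the best 5 kb of Il12rb2 was chr6:67262001-67267000, with 27 Ezh2 and 11 input positions, 2.06-fold (1.01 to 4.71), above 53.1% of all windows. The Th2 control antibody had its own best 5 kb at the same place, with 22 positions and 2.07-fold (0.985 to 4.84). In Th1 the stretch gave 0.760-fold for Ezh2 (0.362 to 1.48). The Ezh2 value was therefore no higher than that of the control antibody over the same 11 input positions.

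For Stat4 the best 5 kb in Th1 was chr1:52068001-52073000, with 33 Ezh2 and 23 input positions, 2.05-fold (1.18 to 3.69). There Th2 stood at 0.797-fold (0.443 to 1.42) and the Th1 control antibody at 1.46-fold (0.757 to 2.77). In Th2 the best was chr1:52041001-52046000, 1 kb from the window start, with 51 and 20 positions, 2.16-fold (1.28 to 3.88). Th1 stood at 1.10-fold there (0.643 to 1.83), and the Th1 control antibody at 1.22-fold (0.714 to 2.06). The Stat4 values exceeded 49.5% and 51.2% of the best 5 kb of all windows of that length, whose 95th percentiles were 4.92 and 6.14. Thus the best 5 kb of Stat4 was that of a median window in each cell type, and the stretch chosen in one cell type was not high in the other.

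**Figure D3:**
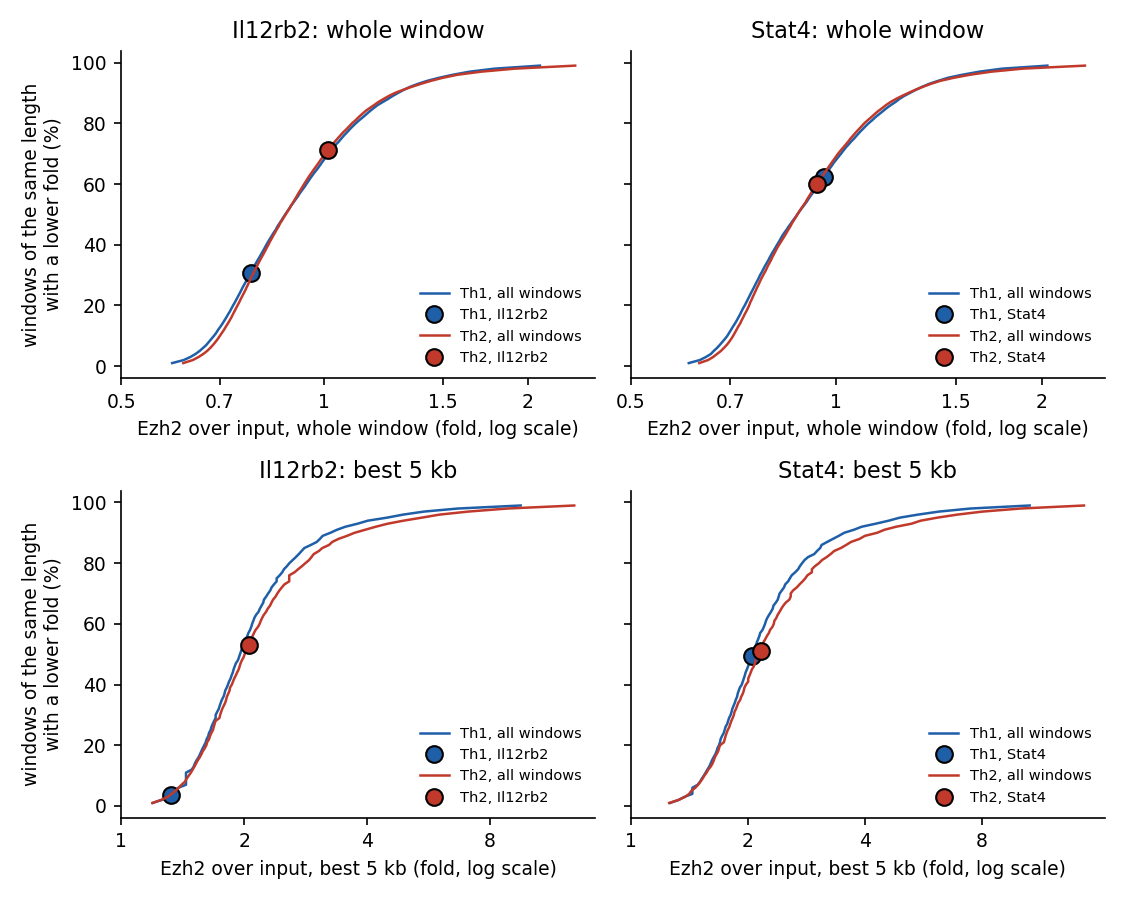
Share of all windows of the same length with a lower fold (vertical axis, %) against Ezh2 over input (horizontal axis, log scale) for the whole window (top) and its best 5 kb (bottom). Lines are all windows of Th1 (blue) and Th2 (red) from the 1st to the 99th percentile, and circles are Il12rb2 (left) and Stat4 (right). The circles lie between 30.8% and 71.2%, except that of the best 5 kb of Il12rb2 in Th1 at 3.75%.

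Enriched regions of the same chromosomes give the scale on which these values stand. The widest called region of chromosome 6 was 72 kb in Th1, chr6:52158001-52230000, at 11.1-fold (95% exact interval 10.2 to 12.0), and 70 kb in Th2 at 14.8-fold (13.5 to 16.2). On chromosome 1 the widest in Th1 was 22 kb long and stood at 5.48-fold (4.71 to 6.43). In Th2 it was another, 26 kb long, at 10.1-fold (8.54 to 12.1). The nearest called bins to Il12rb2 were the same 2 kb in both cell types, chr6:67484001-67486000, 154 kb beyond the window. The nearest to Stat4 lay before the window, 66 kb away in Th1 and 63 kb in Th2. The nearest called region of at least 3 kb was 3573 kb from Il12rb2 in Th1 and 1611 kb in Th2, and 1054 kb from Stat4 in both.

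The block from 70 to 65 kb before the Stat4 window, chr1:51970001-51975000, was enriched in both cell types. It held 106 Ezh2 positions against 34 in the Th1 input, 4.45-fold (3.03 to 6.82, exact test, adjusted p = 4.19e-14), and 120 against 36 in Th2, 2.84-fold (1.96 to 4.28, exact test, adjusted p = 4.5e-07). The Th1 control antibody was 1.38-fold there (0.804 to 2.34). The block was singled out after its values were seen. A stretch of 5 kb was thus callable at this depth within 100 kb of a window that held none. In the gene order of GRCm38.p6 the protein-coding neighbours of Il12rb2 are Serbp1 and Il23r, which encodes the IL-23 receptor. Neither was placed on mm9.

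Around Stat4 the Ezh2 level fell from one side of the gene to the other in both cell types. In Th1 the 100 kb before the window stood at 1.24-fold over input (1.12 to 1.38) and the 100 kb after it at 0.787-fold (0.701 to 0.881). In Th2 they stood at 1.21-fold (1.09 to 1.34) and 0.782-fold (0.702 to 0.870). Each of these values lay between the 5th and 95th percentiles of windows of 95 kb (0.653 to 1.48 in Th1, 0.670 to 1.5 in Th2). Each side alone was thus within the common range of the genome, and how often 2 sides differ this much was not computed. Without the enriched block the side before the window was at 1.10-fold in Th1 (0.987 to 1.23), while Th2 had 1.11-fold (0.998 to 1.24). No such fall was seen with the Th1 control antibody, at 1.00-fold before (0.895 to 1.12) and 1.13-fold after (1.02 to 1.26). Inside the window, the first 25 kb gave 1.09-fold in Th1 (0.878 to 1.34) and in Th2 1.25-fold (1.03 to 1.54), the highest of the 5 parts of 25 kb in each cell type. The other 4 parts lay between 0.839 and 1.05 in Th1 and between 0.742 and 1.04 in Th2. In Th1 all 5 intervals overlapped, whereas in Th2 that of the first part lay above those of the second (0.634 to 1.00) and the third (0.598 to 0.919). These parts were compared after the profile was seen, and neither they nor the sides of the window were tested against each other.

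**Figure D4:**
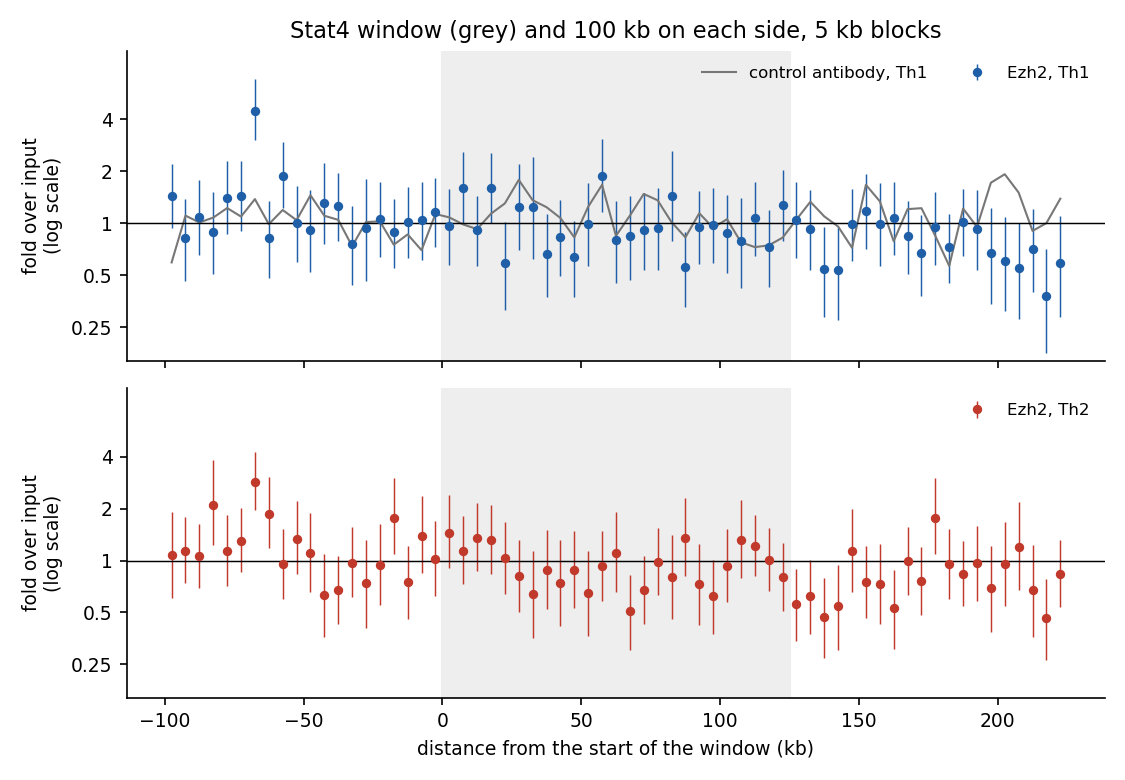
Fold over input (vertical axis, log scale) in 5 kb blocks along the Stat4 window (grey) and 100 kb on each side, by distance from the window start in kb. Points are the Ezh2 libraries of Th1 (above) and Th2 (below) with 95% exact intervals, and the grey line is the Th1 control antibody over the same input. The block 70 kb before the window reaches 4.45-fold in Th1 and 2.84-fold in Th2, while no block inside it exceeds 1.88-fold and 1.44-fold.

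Around Il12rb2 no such slope was seen in Th2, where the 5 parts of 19 kb lay between 0.884 and 1.21 and the 100 kb before and after at 0.924-fold (0.829 to 1.03) and 1.03-fold (0.928 to 1.15). In Th1 the 5 parts were level, between 0.749 and 0.849, below the 100 kb before (1.02-fold, 0.911 to 1.14) and after (0.884-fold, 0.790 to 0.988). The Th1 control antibody showed a dip of the same place, with 0.711 to 0.880 in the 5 parts, 1.09-fold before (0.974 to 1.22) and 0.943-fold after (0.841 to 1.06). Of the blocks beside the gene, the one that ends at the window start, chr6:67230001-67235000, was below input in Th1, with 13 Ezh2 and 54 input positions (0.357-fold, 0.174 to 0.644, exact test, adjusted p = 0.0154). In Th2 another was below input, chr6:67170001-67175000, with 25 Ezh2 and 55 input positions (0.395-fold, 0.233 to 0.638, exact test, adjusted p = 0.00449). The control antibodies of the same cell types gave 0.659-fold and 0.621-fold there, and the other cell type 0.860-fold in the first block and 1.10-fold in the second. Both blocks were singled out after their values were seen, as was 1 beside Stat4. That block, chr1:52255001-52260000, was below input in Th1, with 12 Ezh2 and 47 input positions (0.379-fold, 0.178 to 0.704, exact test, adjusted p = 0.0457). In Th2 it stood at 0.464-fold (0.264 to 0.780, exact test, adjusted p = 0.0695), and the Th1 control antibody gave 1.00-fold there.

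The comparison of Th1 with Th2 then set Ezh2 over input in one cell type against that in the other. For Il12rb2 the Th1 to Th2 ratio was 0.768 (95% exact interval 0.656 to 0.899), that is, lower in Th1. By the conditional exact test, adjusted over 26804 windows, it did not pass the threshold of 0.05 (adjusted p = 0.0514), where 0.716% of windows were called higher in Th1 and 1.06% higher in Th2. Of all windows, 2.87% had a lower ratio. The control antibody over the same inputs gave nearly the same ratio, 0.747 (0.634 to 0.878), lower than all but 1.41% of windows, though it did not pass the conditional exact test (adjusted p = 0.187, with 0.00836% of windows called higher in Th1 and 0% higher in Th2). Ezh2 over the control antibody gave 1.03 (0.867 to 1.22, conditional exact test, adjusted p = 0.972), where 0.661% and 1.05% of windows were called. With no background at all, Ezh2 positions in Th1 were 0.907 times those in Th2 (0.805 to 1.02, adjusted p = 0.317 by the exact test), where 5.64% of windows were called higher in Th1 and 4.95% higher in Th2. The input positions alone gave 1.18 (1.06 to 1.31, exact test, adjusted p = 0.0928), above 98.1% of windows, of which 0.351% and 0.4% were called. The lower ratio at Il12rb2 thus appeared with either antibody over the inputs, and was 1.03 with the control antibody in their place. With all deposited reads in place of positions it was 0.793 and passed the conditional exact test (adjusted p = 0.00157), though reads that share a position may be PCR copies. The share of all windows that passed with reads was not computed.

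For Stat4 the ratio was 1.02 (0.892 to 1.17, conditional exact test, adjusted p = 0.968 over 20398 windows), where 1.03% of windows were called higher in Th1 and 1.52% higher in Th2. The Ezh2 positions alone gave 0.980 (0.887 to 1.08). The interval leaves room for a difference of at most 1.17-fold over the whole window in these libraries. Between windows of that length the ratio had an SD of 0.188 on the log2 scale, and that of Stat4 was 0.03 on the same scale.

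In blocks of 5 kb, Ezh2 over input was lower in Th1 in 14 of the 19 blocks of Il12rb2 and in 12 of the 25 of Stat4, against 50.1% of the blocks of the genome. The median ratio was 0.754 at Il12rb2 and 1.12 at Stat4. By the conditional exact test adjusted over 494832 blocks, 0 blocks were called at either gene, where 0.00162% of all blocks were called higher in Th1 and 0.00101% higher in Th2. Unadjusted, 2 blocks of Il12rb2 were higher in Th2, and at Stat4 1 block was higher in each cell type, where 2.99% and 3.04% of all blocks were higher in Th1 and in Th2. The blocks that differed most at Il12rb2 started 30 kb, 65 kb and 55 kb into the window, with ratios of 0.381, 0.456 and 0.471. At the first of these, chr6:67265001-67270000, the Ezh2 positions were 19 in Th1 and 42 in Th2, and the input positions 51 and 25 (conditional exact test, adjusted p = 0.639). The Th1 control antibody held 33 positions there, 1.09-fold over input, and the Th2 control antibody 39, 1.64-fold, where Ezh2 stood at 0.546-fold in Th1 and 1.43-fold in Th2. At Stat4 the block 85 kb into the window had a ratio of 0.413, and those at 55 kb and 30 kb ratios of 2.03 and 1.93. At the block with 2.03, chr1:52095001-52100000, Ezh2 stood at 1.88-fold in Th1 and 0.927-fold in Th2 (conditional exact test, adjusted p = 0.802), and the Th1 control antibody at 1.67-fold. The named blocks of Stat4 went in opposite directions, and those of Il12rb2 in the direction of the whole window. They were chosen for their large differences, from the counts that also give the window ratio. Their directions are therefore no separate evidence.

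Other genes of the IL-12 pathway (Il12rb1, Jak2, Tyk2, Tbx21, Ifng, Il18r1, Il18rap, Hlx, Stat3, Il23r and Socs3) were not analysed here, since placing them needs an annotation of mm9. For Ezh2, cell type and sequencing run cannot be told apart.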

How the data were processed

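Each deposited line held an interval of 1 fixed length in nearly all cases, without strand, and the count of reads that share it, not normalized. The submitters' processing notes name CASAVA and mm9. For alignment settings, read extension and filters, nothing is given in the sources used here. Each distinct line was counted once, at its midpoint, in bins of 1 kb on chromosomes 1 to 19 and X. Folds were scaled by library totals, with 0.5 added to each count. The Th2 control antibody file ended inside chromosome 17, and its 8 whole chromosomes were used with input totals from the same chromosomes. Bins, blocks and windows under 10 positions were not tested. The tests were exact binomial and conditional exact tests, 2-sided by doubling the smaller tail except for 1 kb bins, with Benjamini-Hochberg adjustment over all features of the genome. The steps were tested on simulated data. Python 3.11.15, SciPy 1.17.1 and NumPy 2.4.6 were used. Named regions were the best 5 kb, the highest bins (no bin was called), the 3 blocks per window with the largest difference between cell types, and the widest called region of the chromosome, with called bins at most 1 bin apart merged. The genes, windows and lists were chosen with earlier results of these data known. Alternatives were all deposited reads, equal depth, background scaling, other backgrounds, and other bin and window sizes.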

Additional observations from a re-analysis of the deposited data

How the results depend on the processing

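No paired analysis was possible because no group held more than 1 library. The equal-depth, 2 kb bin, strict-threshold, no-minimum and window-length alternatives changed no direction and no call, and every best 5 kb stayed within its main interval under all of its alternatives. With all deposited reads, which count PCR copies, 1 kb bins were called at Il12rb2 (1 in Th1, 6 in Th2) and Stat4 (2 in Th1, 4 in Th2). That is between 1.10% and 6.52% of the bins tested there, where 3.83% were called over the genome in Th1 and 5.83% in Th2, and the Th2 control antibody gave 3 at Il12rb2. In 5 kb blocks all reads gave 3 lower calls at Il12rb2 in Th1 and 1 higher call in Th2, and at Stat4 2 higher and 5 lower in Th1 and 1 higher and 1 lower in Th2. The Th1 to Th2 ratio with all reads was 0.793 at Il12rb2 (conditional exact test, adjusted p = 0.00157, the lowest over its alternatives, of which the highest was 0.972), with 2 blocks called, and 0.947 at Stat4, with 1 block called. The shares called over the genome with all reads were not computed for 5 kb blocks or for the Th1 to Th2 comparison. These calls are therefore no result about the genes. Background scaling takes totals from 10 kb bins chosen for a low ratio, and so by construction raised every fold, 1.43 times in Th1 and 1.41 times in Th2. The windows then stood at 1.11-fold in Th1 and 1.42-fold in Th2 for Il12rb2, and at 1.37-fold and 1.32-fold for Stat4, and all but Il12rb2 in Th1 passed the exact test as higher than input. Under that scaling between 57.8% and 61.6% of all windows were called higher, and the place of each gene among the windows cannot change. It called 1 and 3 bins at Il12rb2 in Th1 and Th2, and 2 and 1 at Stat4. These were 1.25% and 3.85% of the bins tested at Il12rb2, and 1.94% and 0.926% at Stat4. Over the genome 3.999% of tested bins were called in Th1 and 3.53% in Th2. Only Il12rb2 in Th2 exceeded that share, with its 3 bins. Background scaling also called 2 blocks higher at Il12rb2 in Th2, 3 at Stat4 in Th1 and 2 at Stat4 in Th2. The share of all blocks called on that scale was not computed, so these block calls are no result about the genes. With the control antibody as background Il12rb2 stood at 0.938-fold in Th1 and 0.922-fold in Th2, and the Th1 to Th2 ratio at 1.03. With the input of the other cell type it stood at 0.917-fold in Th1 and 0.858-fold in Th2, where it passed the exact test as lower. With the same input for both cell types the input cancels from the Th1 to Th2 ratio. What remains is the ratio of Ezh2 positions alone, 0.907 (0.805 to 1.02, exact test, adjusted p = 0.317), so this is no separate check. The values were 0.778-fold in Th1 and 0.858-fold in Th2 with the Th1 input, and 0.917-fold and 1.01-fold with the Th2 input. Th1 stood higher only with the inputs exchanged or with the control antibody as background. With Ezh2 positions alone the Stat4 ratio was 0.980. The Ezh2 positions alone, the control antibody in the Th1 to Th2 comparison and all alternatives for 5 kb blocks of Ezh2 over input were chosen after seeing the data.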
